A study of Mus musculus with 6 samples.

Results

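The lysosome genes described here are 41 genes listed by name: 11 proteases, 9 glycosidases and lipid enzymes, 8 membrane and cholesterol-export proteins, the transcription factors Tfeb and Tfe3, and 11 subunits of the vacuolar proton pump (V-ATPase). They were chosen with earlier results of these data known. Of the 25123 probe sets with a gene symbol, 39 carried a member's symbol directly and 2 carried the older symbols of Tfeb and Tfe3, so all 41 genes (of 22319 distinct genes named on the array) were measured, each by 1 probe set, and no filter on dim signal removed any of them. RNA came from mouse c-kit+ bone marrow cells carrying MLL-AF9, the leukemia-causing fusion protein that joins part of MLL to AF9, and was read on Affymetrix Mouse Gene 1.0 ST arrays. All of them held the fusion, and they had then received the retroviral vector pMIG with TGIF1 (pMIG-TGIF1, 3 arrays) or pMIG alone (3 arrays). Cells with GFP, which the vector carries, were collected by sorting on day 3 after the first transduction and spent 1 day in medium before lysis. Mouse strain, age and the number of independently transformed lines are not given in the labels, and nothing says that the replicates came from separate cultures, so the p-values given below reflect only how far these arrays spread, which may be technical. TGIF1 is a homeodomain repressor of TGF-beta and retinoid responsive transcription, and the study is about its part in MLL-rearranged acute myeloid leukemia.

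Lysosomes break down proteins, sugar chains and lipids with hydrolases that work in acid, and the V-ATPase supplies that acid by pumping protons across the lysosomal membrane. Its membrane sector (V0) carries the protons and its catalytic sector (V1) splits ATP to drive them. TFEB, TFE3 and MITF are related factors known to activate many of these genes through a short promoter element named CLEAR. Macrophages and osteoclasts are rich in lysosomes, and cathepsin K and the V-ATPase subunit d2 are known above all from osteoclasts and macrophage-type cells.

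The vector's own gene went against the label. Tgif1 read 239, 239 and 258 intensity units in the arrays labelled pMIG-TGIF1, against 320, 376 and 408 in the pMIG arrays, a log2 difference of -0.58 ± 0.11 (SE; limma adjusted p = 0.00286). Whether its probes can read the TGIF1 carried by the vector is not given in the sources used here, so this probe set may check nothing, and every direction below rests on the labels. Across probe sets, log2 values correlated at 0.994 to 0.997 for arrays of the same group and at 0.975 to 0.984 for arrays of different groups. Median intensities were 70.3 to 73.3 in the arrays labelled pMIG-TGIF1 and 65.7 to 66.7 in the pMIG arrays, and centring each array on its median would shift every log2 difference by -0.12. Of 4 genes that mark hematopoietic and myeloid progenitor cells, the leukocyte gene Ptprc rose 1.56-fold (2470 to 3121 against 1768 to 1869, limma adjusted p = 0.00136) and the myeloid factor Spi1 did not pass (2161 to 2398 against 2217 to 2564). The progenitor receptor Kit fell 1.32-fold (295 to 344 against 370 to 474, adjusted p = 0.0311), and Mpo, the granule peroxidase of promyelocytes, fell 1.88-fold (107, 132 and 60.2 against 185, 197 and 154, adjusted p = 0.0168). The part of these changes in the lysosome result was not tested. In bulk RNA, a change in the share of cells that express a gene and a change in RNA per cell cannot be told apart.

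Most lysosomal enzymes rose in the arrays labelled pMIG-TGIF1, whereas proton pump subunits rose in a share near that of all probe sets. Of the 41 members, 21 rose, 5 fell and 15 did not pass the test, an adjusted p under 0.05 over all named probe sets. Over all 25123 probe sets 24.7% were called by limma, 11.5% higher and 13.2% lower. Because the members were chosen with earlier results of these data known, setting their counts beside these shares is a description and not a test. Among the 11 proteases 9 rose and 0 fell, among the 9 glycosidases and lipid enzymes 5 rose and 1 fell, and among the 8 membrane and cholesterol-export proteins 5 rose and 0 fell. Of the 11 V-ATPase subunits 1 rose and 4 fell, 2 of these 4 (Atp6v0e and Atp6v1e1) with calls that were lost when single arrays were left out, and with at least a 1.5-fold change 1 rose and 1 fell. Over all 25 V-ATPase genes measured, 2 rose, 4 fell and 19 were not called, which is close to the shares over all probe sets. The median log2 difference was 0.60 for the proteases, 0.43 for the glycosidases and lipid enzymes, 0.51 for the membrane and cholesterol-export proteins, and -0.10 for the V-ATPase subunits, beside 0.010 for all probe sets. With each array centred on its median these became 0.48, 0.31, 0.40 and -0.22, beside -0.11 for all probe sets, and members split into 19 higher and 6 lower calls. The same centring gave 2136 higher and 5007 lower calls over all probe sets, where the uncentred values gave 2892 and 3308. A limit of 1.5-fold was passed by 13 of the rises and 1 of the falls, where 6.01% of all probe sets rose and 6.29% fell by that much.

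**Figure D1:**
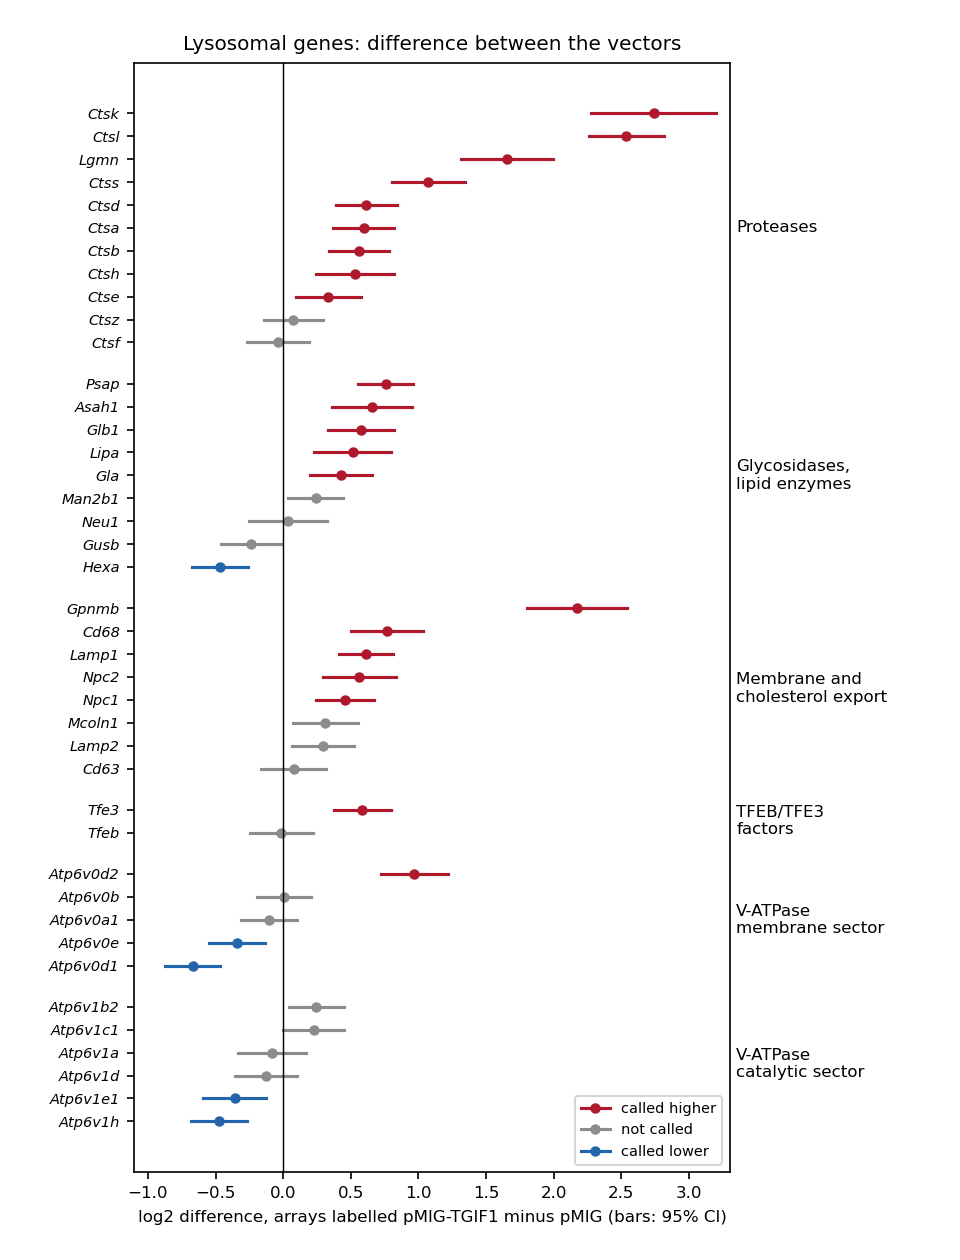
Log2 difference of each of the 41 members (arrays labelled pMIG-TGIF1 minus pMIG, n = 3 each; points are limma estimates and bars 95% confidence intervals), ordered by role. Ctsk, Ctsl, Gpnmb and Lgmn stand to the right at 1.65 to 2.74, most other hydrolases lie between 0.33 and 1.07, and the V-ATPase subunits spread on both sides of 0.

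**Figure D2:**
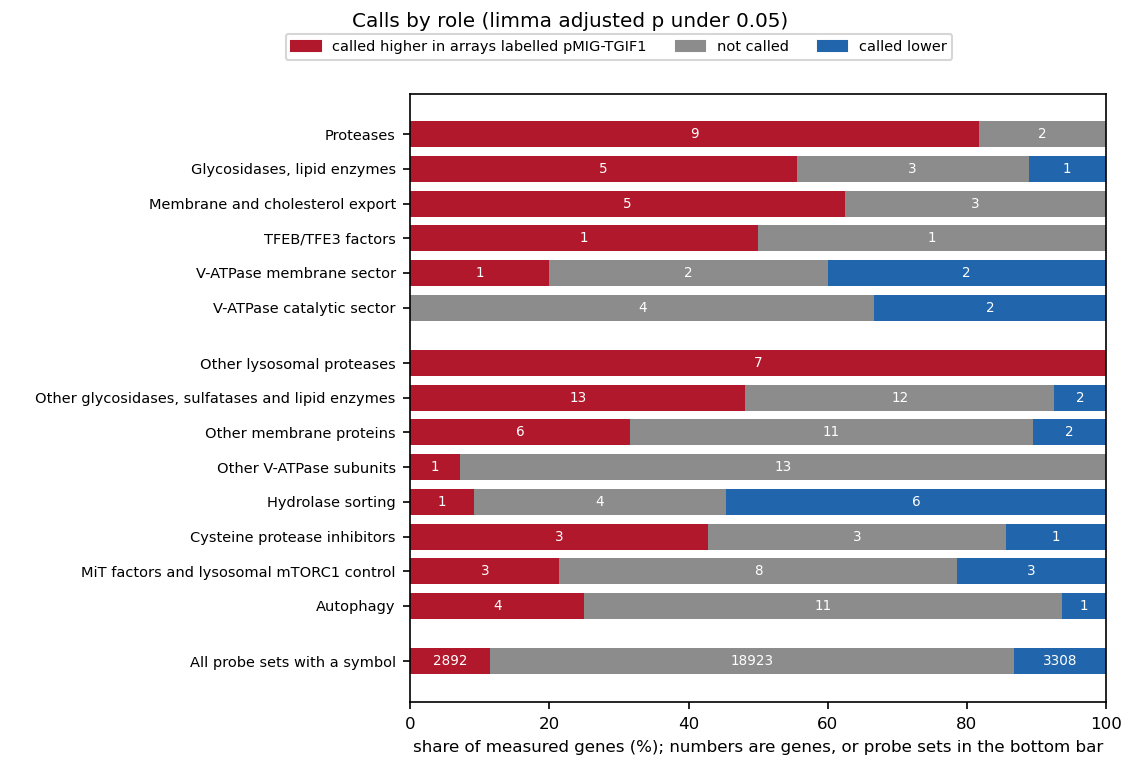
Share of measured genes (x axis, %) called higher, not called and called lower in the arrays labelled pMIG-TGIF1 (against pMIG) for the 6 roles of the members (top), 8 further lists of lysosome-related genes (middle) and all probe sets with a symbol (bottom); numbers are genes, or probe sets in the bottom bar. Proteases have 9 of 11 higher, the V-ATPase catalytic sector 0 of 6 higher and 2 lower, and the hydrolase sorting list 6 of 11 lower.

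Promoter windows (RefSeq, GRCm38.p6, 250 bases before to 50 after the annotated start) were found for 32 of the 41 members, 38 windows in all. Each was searched on both strands for the CLEAR core TCACGTGA, for the E-box CACGTG that lies inside it, and for the M-box TCATGTGA of MITF-type factors. The CLEAR core was present in 7 of the 38 member windows (18.4%), beside 0.974% of all 32851 windows, and the E-box in 13 (34.2%), beside 7.15%. The M-box was present in 2 (5.26%), beside 0.986%. The 7 genes with a CLEAR core included members that rose (Ctsa, Ctsd, Gla), members that fell (Atp6v0d1, Atp6v0e) and members that did not pass (Atp6v1a, Mcoln1). The windows of Ctsk and Gpnmb held none of these motifs, and the window of Ctsl and 1 of the 2 of Lgmn held the E-box alone. A match of letters is a description and not a measured binding site. The windows of 3 members that rose and 2 that fell are shown because they carry the same 8 letters, together with that of Ctss, which rose and holds the M-box alone. Capitals mark the matched motifs, and positions count from 0 at the annotated first transcribed base. In Ctsd they also mark an E-box at -245, outside the CLEAR core.
Atp6v0d1 (fell; chr8:105566015-105566314, minus strand; CLEAR core at -4): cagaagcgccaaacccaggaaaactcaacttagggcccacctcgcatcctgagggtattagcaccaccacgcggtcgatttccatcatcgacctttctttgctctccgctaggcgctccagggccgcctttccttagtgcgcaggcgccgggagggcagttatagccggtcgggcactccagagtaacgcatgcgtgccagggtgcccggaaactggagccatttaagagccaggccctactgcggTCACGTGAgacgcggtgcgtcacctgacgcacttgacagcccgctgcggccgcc
Atp6v0e (fell; chr17:26676146-26676445, plus strand; CLEAR core at 2): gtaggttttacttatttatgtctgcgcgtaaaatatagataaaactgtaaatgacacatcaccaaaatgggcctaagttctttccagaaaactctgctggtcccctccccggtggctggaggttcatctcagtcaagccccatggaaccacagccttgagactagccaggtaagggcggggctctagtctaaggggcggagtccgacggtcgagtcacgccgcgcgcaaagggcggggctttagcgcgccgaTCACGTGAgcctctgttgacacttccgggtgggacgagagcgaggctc
Ctsa (rose; chr2:164833523-164833822, plus strand; first CLEAR core at -13): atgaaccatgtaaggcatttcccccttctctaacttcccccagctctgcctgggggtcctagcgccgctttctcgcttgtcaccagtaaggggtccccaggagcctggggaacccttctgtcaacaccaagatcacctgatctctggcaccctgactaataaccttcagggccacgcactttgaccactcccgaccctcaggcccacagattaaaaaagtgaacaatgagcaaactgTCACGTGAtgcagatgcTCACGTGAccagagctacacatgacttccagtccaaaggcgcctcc
Ctsd (rose; chr7:142387778-142388077, minus strand; CLEAR core at -99): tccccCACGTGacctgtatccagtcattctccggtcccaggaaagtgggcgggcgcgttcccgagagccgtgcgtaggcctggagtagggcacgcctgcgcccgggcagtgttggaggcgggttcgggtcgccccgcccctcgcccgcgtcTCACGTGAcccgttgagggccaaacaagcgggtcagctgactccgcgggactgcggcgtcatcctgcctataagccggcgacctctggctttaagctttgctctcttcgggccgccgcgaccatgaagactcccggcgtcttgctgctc
Gla (rose; chrX:134600956-134601255, minus strand; first CLEAR core at -228, M-box at -211): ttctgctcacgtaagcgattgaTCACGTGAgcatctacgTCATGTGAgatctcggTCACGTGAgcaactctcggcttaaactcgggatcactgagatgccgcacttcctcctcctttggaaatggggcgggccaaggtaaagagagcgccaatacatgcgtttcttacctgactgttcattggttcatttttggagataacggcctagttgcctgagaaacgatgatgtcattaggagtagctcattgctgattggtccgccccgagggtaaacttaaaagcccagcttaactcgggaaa
Ctss (rose; chr3:95526536-95526835, plus strand; M-box at 18): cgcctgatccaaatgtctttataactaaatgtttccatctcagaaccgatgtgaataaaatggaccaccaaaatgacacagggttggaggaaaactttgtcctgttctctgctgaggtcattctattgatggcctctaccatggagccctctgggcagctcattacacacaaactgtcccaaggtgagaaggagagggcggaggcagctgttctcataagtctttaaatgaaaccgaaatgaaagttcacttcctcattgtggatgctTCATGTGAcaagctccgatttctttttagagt

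The cathepsins and legumain are the proteases of the lysosome. Ctsk, which encodes the collagen-cutting cathepsin K, read 321, 281 and 162 in the arrays labelled pMIG-TGIF1, against 37.7, 37.6 and 34.6 in the pMIG arrays. All 3 pMIG values lay under the array medians, and the third array labelled pMIG-TGIF1 was well below its companions yet far above every pMIG array. The fold was 6.68 (95% CI 4.85 to 9.20, limma adjusted p = 9.70e-06), and without pMIG-TGIF1 replicate 3 the log2 difference was 3.04 in place of 2.74. Ctsl, the broadly expressed endopeptidase cathepsin L, read 4775, 4901 and 4714, against 770, 725 and 1011 in the pMIG arrays. It was 5.80-fold higher (95% CI 4.78 to 7.04, adjusted p = 5.87e-07), with an SD of 95.3 among the arrays labelled pMIG-TGIF1 and 154 among the pMIG arrays.

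Lgmn encodes legumain, which cuts after asparagine and processes other lysosomal proteases. It read 1018, 1281 and 871 in the arrays labelled pMIG-TGIF1, against 295, 313 and 394 in the pMIG arrays, a 3.15-fold rise (95% CI 2.48 to 3.99, limma adjusted p = 3.55e-05). Ctss, cathepsin S of antigen-presenting cells, read 3728, 4321 and 4548 against 1951, 1757 and 2296 (2.10-fold, adjusted p = 0.000124). Ctsk and Ctss lie next to each other on chromosome 3 with 0 protein-coding genes between them. The groups did not overlap for either Lgmn or Ctss.

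Other cathepsins rose by smaller amounts. The aspartic protease gene Ctsd read 13370, 14174 and 14253 in the arrays labelled pMIG-TGIF1, against 9530, 8061 and 9780 in the pMIG arrays (1.53-fold, 95% CI 1.31 to 1.79, limma adjusted p = 0.00134). Ctsa, the protective protein that stabilizes beta-galactosidase and neuraminidase, was 1.51-fold higher (1948 ± 96.8 against 1292 ± 118, SD, n = 3 each, limma). Ctsb, another abundant cysteine cathepsin, was 1.48-fold higher (4701 ± 353 against 3180 ± 222) and the aminopeptidase Ctsh 1.45-fold higher (1325 ± 214 against 912 ± 96.1). Ctse, an aspartic protease of endosomes, was only just called: it read 52.7, 63.0 and 51.3 against 47.1, 42.9 and 42.0, all under the array medians (1.26-fold, adjusted p = 0.0447). The call of Ctse was lost in 11 of 15 alternatives that could test it, with each array centred on its median among them (adjusted p = 0.185), and that of Ctsh without variance moderation (0.112) and without pMIG replicate 1 or 2 (adjusted p = 0.0504 and 0.0515). Ctsz (log2 0.075 ± 0.097 SE, adjusted p = 0.663) and Ctsf (-0.037 ± 0.10, adjusted p = 0.857) did not pass. The 95% interval of the fold was 0.907 to 1.22 for Ctsz, below the estimates of Ctsa, Ctsb and Ctsd.

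**Figure D3:**
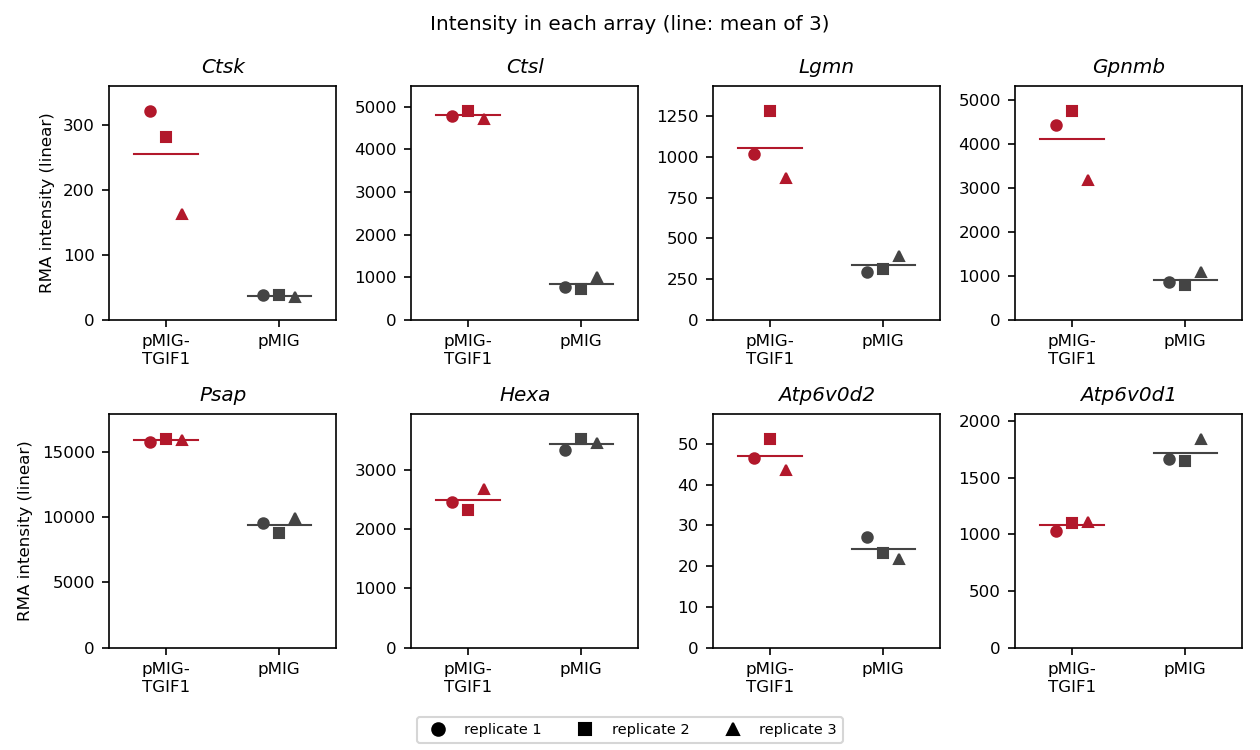
RMA intensity (y axis, linear and starting at 0) in each array for 8 members, arrays labelled pMIG-TGIF1 on the left and pMIG on the right of each panel; symbols mark the replicate number and lines the mean of 3. The groups do not overlap in any of these 8 genes, Ctsk, Lgmn and Gpnmb are lowest in replicate 3 among the arrays labelled pMIG-TGIF1, and Hexa and Atp6v0d1 are lower there than in the pMIG arrays.

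Among the glycosidases and lipid enzymes the rises were small and 1 gene moved the other way. Psap, which encodes the precursor of the saposins that present lipids to their hydrolases, read 15775, 16046 and 15985 in the arrays labelled pMIG-TGIF1, against 9567, 8766 and 9983 in the pMIG arrays. It rose 1.69-fold (95% CI 1.47 to 1.95, limma adjusted p = 0.000178) and was the steepest of these 9 genes. Acid ceramidase Asah1 rose 1.58-fold (2123 ± 281 against 1348 ± 195, SD), beta-galactosidase Glb1 1.49-fold (688 ± 81.0 against 461 ± 35.4), the acid lipase Lipa 1.43-fold (2332 ± 159 against 1645 ± 267) and alpha-galactosidase Gla 1.34-fold (1315 ± 112 against 979 ± 70.3). Of these calls Asah1, Glb1, Lipa and Gla were lost without variance moderation (adjusted p = 0.0533 to 0.113), and Gla also with array median centring (0.0505) and without pMIG replicate 1 (0.0521).

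Hexa, the alpha subunit of beta-hexosaminidase, fell. It read 2470, 2335 and 2676 in the arrays labelled pMIG-TGIF1, against 3351, 3534 and 3458 in the pMIG arrays, 1.39-fold lower (95% CI 1.20 to 1.60, limma adjusted p = 0.00374). Beta-glucuronidase Gusb lay lower in all 3 arrays labelled pMIG-TGIF1 (977, 938 and 806 against 1088, 1044 and 1060) without passing (adjusted p = 0.124, or 0.0293 with array median centring). The mannosidase Man2b1 lay higher in all 3 without passing (log2 0.24 ± 0.092, adjusted p = 0.0905), and the sialidase Neu1 differed by 0.032 ± 0.13 (adjusted p = 0.904), a value whose sign turned with array median centring.

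The membrane proteins were led by Gpnmb, a glycoprotein of macrophages and osteoclasts that is known as a target of MITF. Gpnmb read 4432, 4745 and 3167 in the arrays labelled pMIG-TGIF1, against 849, 788 and 1087 in the pMIG arrays, 4.51-fold higher (95% CI 3.49 to 5.82, limma adjusted p = 1.01e-05). Cd68, the macrophage sialomucin, read 4571, 4344 and 5189 against 2362, 2882 and 3076, 1.70-fold higher (adjusted p = 0.000949). Lamp1, the most abundant kind of lysosomal membrane glycoprotein together with Lamp2, rose 1.53-fold (3305 ± 50.7 against 2165 ± 136, SD, n = 3 each, limma adjusted p = 0.000664). Npc2 and Npc1, which hand cholesterol from the lumen to the membrane and out, rose 1.48-fold and 1.38-fold (adjusted p = 0.00592 and 0.00515), the call of Npc2 being lost without variance moderation (0.0783). Lamp2 (log2 0.29 ± 0.10, adjusted p = 0.0643) and the calcium channel Mcoln1 (0.31 ± 0.11, adjusted p = 0.0634) lay just beyond the threshold, although in both genes all 3 arrays labelled pMIG-TGIF1 lay above all 3 pMIG arrays. Each of these genes passed in 4 of 16 alternatives. The tetraspanin Cd63 differed by 0.077 ± 0.11 (adjusted p = 0.697) and its sign turned with array median centring.

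Across the 41 members the groups did not overlap in 26 genes that were higher and 6 that were lower, where 18.7% of all probe sets were higher and 19.7% lower without overlap. The third array labelled pMIG-TGIF1 was low for some of the steepest risers and not for others. Relative to the mean of replicates 1 and 2 of that group, its log2 value was -0.89 for Ctsk, -0.53 for Gpnmb and -0.39 for Lgmn, but -0.037 for Ctsl, 0.18 for Ctss and 0.050 for Ctsd. The macrophage receptors Mrc1 (-0.79) and Mertk (-0.53) were low in the same array, whereas Cd14 (0.18) and Adgre1 (0.17) were not.

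Some markers of macrophages moved with these genes. Of 8 markers listed for the cell type, 4 rose and 0 fell: Mertk 5.60-fold, Cd14 5.02-fold, Mrc1 4.24-fold and Adgre1 1.96-fold. Over all probe sets 11.5% rose and 13.2% fell. The pMIG values of Mertk and Mrc1 lay under the array medians. Csf1r (905 to 1065 against 812 to 919), Itgam (3146 to 3721 against 2766 to 3265), Fcgr1 and Vcam1 did not pass. The summed intensity of the 8 markers was 12589 to 13645 in the arrays labelled pMIG-TGIF1, against 6922 to 7881 in the pMIG arrays. Most of that gap came from Cd14 (mean 3554.5 against 714) and Adgre1 (3962 against 2023). Of 9 osteoclast markers 3 rose (Mmp9 3.12-fold, Dcstamp 1.41-fold, Acp5 1.30-fold). Dcstamp stayed under the array medians in both groups, as did the uncalled Calcr, Oscar and Car2. Acp5 lay under them in the pMIG arrays. The osteoclast markers summed to 1689 to 1857, against 1095 to 1170 in the pMIG arrays, with most of that gap from Mmp9 (855 ± 111 against 273 ± 18.6, SD), and their median log2 difference was 0.13. Of 6 neutrophil markers 2 rose (sums 11265 to 12356 against 7552 to 9502), and of 4 megakaryocyte markers 1 rose (962 to 1221 against 197 to 242). The megakaryocyte markers had a median log2 difference of 0.087, so most of their summed gap came from the 1 that rose. Of 6 mast cell and basophil markers 1 fell (217 to 236 against 322 to 333). Of 4 markers of stroma and endothelium 1 fell (1186 to 1335 against 1603 to 1834), of 3 T cell markers 1 rose (137 to 152 against 139 to 146), and of 4 B cell markers 0 were called (160 to 163 against 158 to 161). No marker was at 0, since RMA intensities do not reach it. The part of any of these in the lysosome result was not tested.

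Of the 2 factors known to switch on lysosomal genes, Tfe3 rose and Tfeb did not pass the test. Tfe3 read 362, 390 and 349 in the arrays labelled pMIG-TGIF1, against 260, 240 and 234 in the pMIG arrays, 1.5-fold higher (95% CI 1.30 to 1.73, limma adjusted p = 0.00109). Tfeb read 199, 204 and 245 against 209, 214 and 228, an overlap of the groups, with a log2 difference of -0.014 ± 0.11 (adjusted p = 0.95). Whether Tfe3 and Tfeb differ from each other in this comparison was not tested. Both proteins are controlled by phosphorylation and nuclear entry, which RNA does not measure. Of their relatives, Mitf was 1.26-fold higher (limma adjusted p = 0.0261) and Tfec 1.24-fold lower (adjusted p = 0.026).

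In the membrane sector of the V-ATPase, the paired d subunits moved in opposite directions. Atp6v0d1, the widely expressed form of subunit d, read 1034, 1100 and 1110 in the arrays labelled pMIG-TGIF1, against 1670, 1650 and 1846 in the pMIG arrays. It was 1.59-fold lower (95% CI 1.38 to 1.84, limma adjusted p = 0.000418), the steepest fall among all 41 members. Atp6v0d2, the form known from osteoclasts and some macrophages, read 46.5, 51.3 and 43.6 against 27.2, 23.3 and 21.8, 1.96-fold higher (95% CI 1.65 to 2.33, adjusted p = 0.000135). All of its values lay under the array medians, and it was among the dimmest 30% of probe sets, so it was not tested when these were left out. Atp6v0e, a small membrane subunit, fell 1.27-fold (821, 761 and 852 against 974, 1042 and 1068, adjusted p = 0.0208). That call was lost with quantile normalization (0.0507) and without pMIG-TGIF1 replicate 2 or pMIG replicate 2 or 3 (adjusted p = 0.0678 to 0.0855). Atp6v0a1, the proton path's large subunit, and Atp6v0b of the rotating ring had log2 differences of -0.10 ± 0.094 and 0.005 ± 0.089 (adjusted p = 0.511 and 0.979).

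In the catalytic sector 0 of 6 subunits rose and 2 fell. Atp6v1h, which regulates the coupling of ATP splitting, read 627, 600 and 564 in the arrays labelled pMIG-TGIF1, against 789, 870 and 828 in the pMIG arrays (1.39-fold lower, 95% CI 1.21 to 1.60, limma adjusted p = 0.00346). Atp6v1e1, a peripheral stalk subunit, read 1636, 1838 and 1898 against 2164, 2181 and 2553 (1.28-fold lower, adjusted p = 0.0300), a call lost without variance moderation (0.102) and without pMIG-TGIF1 replicate 1 or 2 or pMIG replicate 2 or 3 (adjusted p = 0.0515 to 0.129). The subunits that split ATP were not called: the log2 difference was -0.084 ± 0.11 for Atp6v1a and 0.25 ± 0.091 for Atp6v1b2 (adjusted p = 0.680 and 0.0770). Atp6v1b2 passed with quantile normalization, with the intensity trend and with the dimmest 50% left out. Atp6v1c1 (0.23 ± 0.10, adjusted p = 0.149) and Atp6v1d (-0.13 ± 0.10, adjusted p = 0.446) did not pass.

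**Figure D4:**
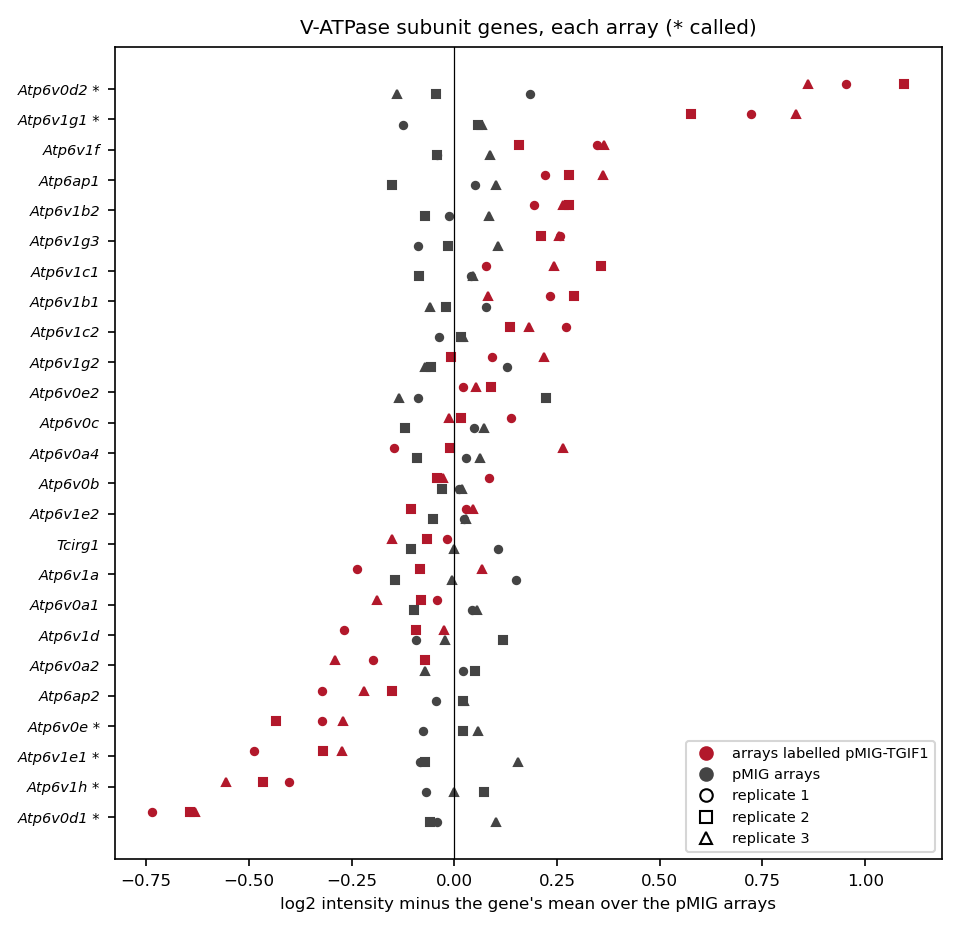
Log2 intensity of each array minus the gene's mean over the pMIG arrays (x axis) for 25 V-ATPase subunit and accessory genes, ordered by their difference; red symbols are arrays labelled pMIG-TGIF1, grey symbols pMIG arrays, shapes the replicate numbers, and asterisks mark calls. Atp6v0d2 and Atp6v1g1 are the 2 calls above 0, Atp6v0d1, Atp6v1h, Atp6v1e1 and Atp6v0e the 4 calls below it, and 19 genes were not called.

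Of 14 further V-ATPase subunit and accessory genes, 1 rose and 0 fell by limma, with 13 not called and 2 called lower under array median centring. Over all probe sets 11.5% rose and 13.2% fell without centring. The rise was that of Atp6v1g1, a stalk subunit, at 1.64-fold (2094 ± 184 against 1279 ± 94.7, SD, limma adjusted p = 0.000614). The median log2 difference of the 14 was 0.078, or -0.038 with array median centring.

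Further hydrolases outside the 41 genes were counted in the same fit, in which 11.5% of all probe sets rose and 13.2% fell. All 7 other lysosomal proteases rose, although 4 of 7 were called with array median centring. Ctsc, which activates granule proteases, was 2.37-fold higher (95% CI 2.02 to 2.77). The cysteine protease Ctso was 2.12-fold higher and the carboxypeptidase Scpep1 2.04-fold. The call of Scpep1 was lost without variance moderation (limma adjusted p = 0.0728). Ctsw, 1.23-fold higher, lay under the array medians in both groups. Of 27 other glycosidases, sulfatases and lipid enzymes 13 rose and 2 fell, or 9 and 5 with array median centring. Naglu, which degrades heparan sulfate, was 1.96-fold higher and the galactosylceramidase Galc 1.76-fold. Of 19 other membrane proteins 6 rose and 2 fell, with the sialomucin Cd164 1.55-fold and the nucleoside transporter Slc29a3 1.5-fold higher and the transporter-like Mfsd8 1.52-fold lower.

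Genes that deliver or restrain the hydrolases were called in both directions. Over all probe sets 11.5% rose and 13.2% fell. Of 11 sorting genes 1 rose and 6 fell. Nagpa, which uncovers the mannose 6-phosphate tag on new hydrolases, read 319, 343 and 287 in the arrays labelled pMIG-TGIF1, against 750, 715 and 708 in the pMIG arrays (2.29-fold lower, 95% CI 1.97 to 2.67, limma adjusted p = 1.61e-05). Gnptg, a subunit of the enzyme that adds the tag, was 1.46-fold lower. Igf2r, the large receptor for the tag, read 108, 103 and 83.8 against 47.1, 37.8 and 39.8 (2.36-fold higher, adjusted p = 5.96e-05). Its pMIG values all lay under the array medians. For the small receptor M6pr the log2 difference was 0.088 ± 0.097 (adjusted p = 0.6). Of 7 cysteine protease inhibitors 3 rose and 1 fell. The stefins Stfa3 and Stfa1 were 2.48-fold and 1.62-fold higher, and Cst7, cystatin F of leukocyte lysosomes, was 1.68-fold lower (1976 ± 238 against 3297 ± 123, SD). The stefin genes are near-identical copies, so their probe sets may read each other's RNA.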

How the data were processed

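The authors deposited 1 linear intensity per probe set and array, made with RMA in Partek, per the submitters' processing notes; RMA settings, genome build and array annotation are not given in the sources used here. Both deposited tables held the same intensities (largest difference 0). The authors' deposited p-value and signed fold change were not used in any result.

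Probe sets were named through the RefSeq accession, current or older symbol. Log2 intensities of 25123 named probe sets were fitted with limma 3.58.1 in R 4.3.3 (pMIG-TGIF1 minus pMIG, default moderation), and a call needed a Benjamini-Hochberg adjusted p under 0.05. Rose and fell are used of calls. The fit was tested on simulated data. For genes with several probe sets the one with the highest mean was used; each member had 1. Named are all members and up to 3 calls of each further list with the largest difference. M6pr, Mitf, Tfec, Becn1, Ulk1, Ctsw, Lamtor1, Lamtor2, Lamtor4, Lamtor5, Rragb and Rragc were added after their values were seen. Results for a few genes are not reported here. The members and lists were chosen with earlier results of these data known.

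Same-numbered arrays did not deviate together (correlations -0.19, -0.11 and -0.049), so replicate numbers were not taken as pairs. Alternatives were the replicate block, an intensity trend with robust prior, no moderation, quantile normalization, array median centring, leaving out the dimmest 30% or 50%, all probe sets, array weights, the other table and each array in turn. The number of arrays limits the precision.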

Additional observations from a re-analysis of the deposited data

How the results depend on the processing

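Of the 26 called members, 17 kept call and direction in each of the 16 alternatives run that tested them, 9 lost the call in at least 1, and 0 turned direction. The other deposited table held the same values and could not change a call, yet it is counted in every total of alternatives. Leaving out 1 array at a time gave 18 to 21 members higher and 3 to 5 lower (3 without pMIG-TGIF1 replicate 2, pMIG replicate 2 or pMIG replicate 3), 1 to 2 lower in each V-ATPase sector, 2323 to 2724 probe sets higher and 2537 to 3187 lower. The 1.5-fold limit left 13 members higher and 1 lower. The higher ones were 6 proteases, 2 glycosidases and lipid enzymes, 3 membrane and cholesterol-export proteins, Tfe3 and Atp6v0d2. The lower one was in the V-ATPase membrane sector, and 0 passed in either direction in the catalytic sector. Without moderation only 14 members rose and 4 fell, with 1 glycosidase or lipid enzyme rising and 1 catalytic subunit falling. The same fit gave 1754 probe sets higher and 1647 lower. Array median centring gave 2 lower glycosidases and lipid enzymes, 23 lower among the further pathway genes, for 15 uncentred, and 5007 lower probe sets. Leaving out the dimmest 30% or 50% gave 0 higher in the membrane sector, since Atp6v0d2 was no longer tested. Quantile normalization gave 1 lower there and 1 higher in the catalytic sector, and the intensity trend and the dimmest 50% also gave 1 higher in the catalytic sector. The replicate block gave 20 members higher and 5 lower; of the members it ended only the call of Ctse (adjusted p = 0.0741). The replicate numbers are not shown to pair the arrays: 0 of 3 correlated best with their own number.

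Direction turned in 6 uncalled members, each close to 0: Ctsf to 0.0125 without pMIG-TGIF1 replicate 1 (-0.116 to 0.0125 with 1 array left out); Ctsz to -0.041 with array median centring; Neu1 to -0.084 with centring, -0.0028 with array weights, and -0.063 and -0.041 without pMIG-TGIF1 or pMIG replicate 1 (-0.0633 to 0.144); Cd63 to -0.039 with centring and -0.0076 without pMIG-TGIF1 replicate 1 (-0.0076 to 0.143); Tfeb to 0.035 with quantile normalization and to 0.042, 0.024 and 0.022 without pMIG-TGIF1 replicate 1, pMIG-TGIF1 replicate 2 or pMIG replicate 3 (-0.108 to 0.0415); and Atp6v0b to -0.0007 with quantile normalization, -0.11 with centring, and -0.035 and -0.010 without pMIG-TGIF1 replicate 1 or pMIG replicate 2 (-0.0349 to 0.0288). The cause was not tested. No member had a further probe set to compare. Signals near or under the array median carry no detection call. Among members these are Ctse, Ctsf, Atp6v0d2 and, in pMIG, Ctsk. Among other named genes they include Ctsw, Dcstamp and, in pMIG, Igf2r, Rragd, Mertk and Mrc1.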

Other observations

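Genes around the lysosome's surface and its supply by autophagy were also counted. Of 16 autophagy genes 4 rose and 1 fell, beside 11.5% and 13.2% of all probe sets. The cargo receptor Sqstm1 read 3376, 3442 and 3444 in the arrays labelled pMIG-TGIF1, against 1602, 1527 and 1710 in the pMIG arrays (2.12-fold higher, 95% CI 1.85 to 2.44, limma adjusted p = 1.70e-05), and the groups did not overlap. The autophagosome proteins Map1lc3a and Map1lc3b were 1.73-fold and 1.69-fold higher, while the initiating genes Becn1 and Ulk1 had log2 differences of 0.014 ± 0.097 and 0.18 ± 0.12 (adjusted p = 0.945 and 0.344).

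Of 14 genes that link the lysosome to MiT factors and mTORC1, 3 rose and 3 fell, beside 11.5% and 13.2% of all probe sets. These calls include Mitf and Tfec, given above. The GTPases Rragd and Rraga, which recruit mTORC1 to the lysosome, were 1.97-fold and 1.85-fold higher, the call of Rraga being lost without variance moderation (limma adjusted p = 0.0635). Lamtor3, part of the anchor that holds these GTPases, read 1341, 1394 and 1533 in the arrays labelled pMIG-TGIF1, against 2823, 2743 and 2796 in the pMIG arrays (1.96-fold lower, 95% CI 1.70 to 2.26, limma adjusted p = 4.02e-05). The other anchor genes Lamtor1, Lamtor2, Lamtor4 and Lamtor5 were not called (log2 differences 0.11, 0.21, -0.046 and 0.23). The GTPase genes Rragb and Rragc were not called either.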
